A study of Homo sapiens with 10 samples.

Results

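The genes BIRC2, BIRC3, TRAF1, RIPK2, TNFAIP8, TNFAIP2, ICAM1, CD83, SOD2 and PTGS2 are known targets or effectors of the NF-kB pathway that act in cell survival and inflammation, and their RNA levels were followed by hour in MiaPaCa-2 cells. They were chosen by name, and each was read from the probe sets that the platform annotation assigns to its symbol alone. Of these 10 genes, 9 had such a probe set, among 19775 genes of the whole table. They had 17 probe sets in all. BIRC3, which encodes a close relative of BIRC2, had none and is not analysed here. PTGS2 lay under the filter on mean level, so 8 of the genes were tested among 11865.

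MiaPaCa-2 is an established human pancreatic tumour line. The 8 treated arrays held cells exposed to culture supernatant of pancreatic stellate cells, the fibroblast-like cells of the pancreas, for 1, 2, 3, 4, 5, 6, 7 or 24 h, and those stellate cells had themselves been primed with pooled supernatant of 8 tumour cell lines. The 2 control arrays were taken at 0 and 24 h, and what the 24 h control received in place of the supernatant is not stated in the labels. All 10 arrays are of 1 cell line, with 1 array for each time in each group and no supernatant from unprimed stellate cells among them, so the effect of priming cannot be told apart from that of the supernatant. The labels do not state whether each array is a culture of its own, and the spread that the p-values rest on may therefore be technical.

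NF-kB is a family of transcription factor dimers kept inactive in the cytoplasm by inhibitor proteins. Signals from receptors such as those for TNF or interleukin-1 pass through adaptor proteins and ubiquitin ligases to a kinase complex that marks the inhibitors for destruction, and the freed dimers then switch on genes for survival proteins, adhesion molecules, cytokines and the pathway's own inhibitors. In pancreatic tumours the pathway is known as a link between inflammation, stroma and resistance to cell death.

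The marker genes of the line were present: KRT8, KRT18 and VIM lay above the filter level (log2 5.79, the 40th percentile of mean gene levels) on all 10 arrays, while CDH1 lay below it on all. CDKN2A, a gene known to be deleted in MiaPaCa-2, read from 6.66 to 7.30, so its probe set goes against that background. Of 9 stellate cell and fibroblast markers, 4 were above the filter level on every array and LUM, PDGFRB and POSTN below it on every array. Their summed log2 level was 57.9 to 58.3 in the controls and 56.1 to 58.8 in the treated arrays, and COL1A2 read 12.16 to 12.23 in the controls against 11.31 to 11.94 after exposure. Of 6 leukocyte markers, 4 were measured, with sums of 23.0 to 23.9 in the controls and 21.5 to 22.6 after exposure. PTPRC, which defines leukocytes, was below the filter level on every array. LYZ was above it on all 10 arrays, CD14 on 9 and CD3E on 1. The 2 h array had the lowest upper quartile of the set, 7.50 against 7.63 to 7.76 on the others. The controls were 1 log2 unit or more apart in 276 genes (2.33% of those tested), among them none of the 8 tested members, and CD83 came nearest with a gap of -0.94 from the 0 h to the 24 h control.

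The promoters were searched close to transcript starts for set patterns of letters, some of which NF-kB is known to bind. Stretches of RefSeq sequence (GRCh38.p14) reaching 250 bases before each of 17 annotated starts of 8 members were searched on both strands for the 10-base kappaB consensus, for GGAANTTCC, which can lie within it, for TGANTCA, for TGACGTCA and for TATAAA. RIPK2 and BIRC3 were not searched. For TNFAIP2 only the start at chr14, base 103123461, was searched, and the outermost end of the gene, at base 103121469, was not. The kappaB consensus was found before 1 start, the second of 2 annotated for CD83 (chr6, base 14117772), against 9.96% of 35116 starts in the whole table. GGAANTTCC was found before that start and before the start of ICAM1, against 0.826% of all starts. These are matches of letters, not measured binding, and the start used in these cells is not known. Stretches that differ from a pattern by a letter were not counted, so a start without a match may still hold a site.

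The CD83 stretches below lie 5′ of its second start, 516 bases after the outermost one, and were chosen after the match was seen. Capitals mark the bases covered by overlapping matches to the kappaB consensus.
CD83, chr6:14117691-14117712, plus strand: ccgccGGGGAATCCCCCgggct
CD83, chr6:14117715-14117736, plus strand: cgcgcaGGGAAGTTCCCgaacg

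The windows of ICAM1, PTGS2 and BIRC2 are shown. ICAM1 and PTGS2 are textbook NF-kB targets. By main probe set, ICAM1 stayed near its control levels here while BIRC2 did not. The other ICAM1 probe sets, both dimmer, lay above both controls at 1 to 3 h. PTGS2 read at the bottom of the scale, so its flat values do not tell whether it responded. Capitals in ICAM1 mark its GGAANTTCC match, at bases -186 to -178 counted from the start. TATAAA lies at -30 to -25 in ICAM1 and at -32 to -27 in PTGS2, and 10.7% of all starts hold it. It was also found for CD83 and TNFAIP8, which rose. There it lies before the outermost CD83 start (-243 to -238 and -236 to -231). In TNFAIP8 it lies before the second start (-224 to -219 and -222 to -217). TGACGTCA was found before the second start of BIRC2 at -167 to -160 (1.65% of all starts). TGANTCA, which 6.57% of all starts hold, was found before none of the members' starts that were searched.
ICAM1, chr19:10270870-10271119, plus strand: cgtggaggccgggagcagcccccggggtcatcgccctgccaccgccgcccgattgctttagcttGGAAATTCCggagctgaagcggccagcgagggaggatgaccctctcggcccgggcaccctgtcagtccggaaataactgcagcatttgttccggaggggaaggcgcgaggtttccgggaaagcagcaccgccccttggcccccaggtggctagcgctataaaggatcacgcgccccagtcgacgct
PTGS2, chr1:186680424-186680673, minus strand: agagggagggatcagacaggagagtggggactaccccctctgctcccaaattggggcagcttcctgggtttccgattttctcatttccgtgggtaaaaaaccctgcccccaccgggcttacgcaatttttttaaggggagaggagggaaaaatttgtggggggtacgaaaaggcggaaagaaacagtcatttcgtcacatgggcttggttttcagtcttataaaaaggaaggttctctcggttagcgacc
BIRC2, chr11:102346964-102347213, plus strand: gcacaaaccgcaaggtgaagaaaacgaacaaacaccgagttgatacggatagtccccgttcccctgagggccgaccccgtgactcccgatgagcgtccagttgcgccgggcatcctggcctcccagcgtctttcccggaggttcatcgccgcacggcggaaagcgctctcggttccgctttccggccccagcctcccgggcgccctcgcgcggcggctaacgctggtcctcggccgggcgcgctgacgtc

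Against the controls, 5 of the 8 tested genes rose in the 4 arrays of hours 4 to 7: TNFAIP2, CD83, SOD2, BIRC2 and TNFAIP8. No member fell past the threshold. In RNA of whole cultures, fewer cells with a transcript and less of it per cell cannot be told apart. Of all genes tested in that comparison 7.6% rose and 6.19% fell. The median change of the 8 members was 0.64 on the log2 scale beside -0.01 over all tested genes. In the 3 arrays of hours 1 to 3 none of the 8 passed the threshold in either direction, beside 0.843% of all genes higher and 1.12% lower, and the members' median was 0.31 beside -0.04. At an unadjusted p under 0.05, limma counted 2851 genes in that window and 3529 in the later one. Changes are log2 differences with their standard errors from limma, and adjusted p is Benjamini-Hochberg over all tested genes with a threshold of 0.05.

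**Figure D1:**
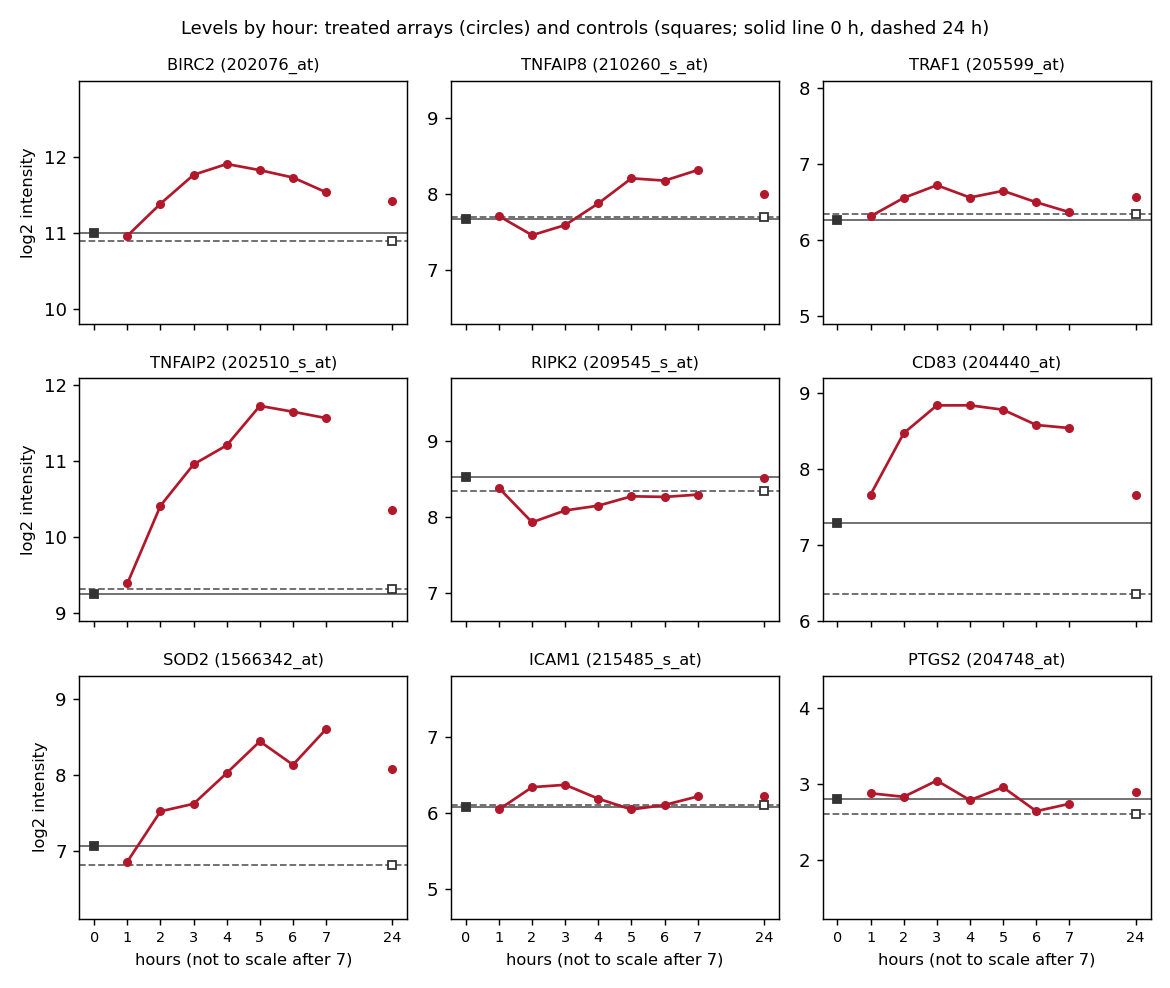
Log2 intensity (vertical axes, each spanning the same range of log2 units) of the main probe set of 9 genes by hour of exposure (horizontal axis, not to scale after 7 h). Circles are the 8 treated arrays and squares the 2 controls, whose levels run on as a solid (0 h) and a dashed (24 h) line; TNFAIP2, CD83, SOD2 and BIRC2 leave the control lines by 2 h, TNFAIP8 at 4 h, and ICAM1 and PTGS2 stay near them.

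Among the survival proteins, BIRC2 encodes cIAP1, a ubiquitin ligase that joins TNF receptor complexes and restrains cell death. Its level was 11.00 in the 0 h control and 10.89 in the 24 h control, and 10.96, 11.39, 11.77, 11.91, 11.83, 11.73, 11.54 and 11.42 after 1, 2, 3, 4, 5, 6, 7 and 24 h. The 1 h array lay between the controls and the 7 later ones above both. The rise in hours 4 to 7 was 0.81 ± 0.19, or 1.75-fold (limma adjusted p = 0.0228). In hours 1 to 3 the difference was 0.43 ± 0.20 (limma adjusted p = 0.221). The call for hours 4 to 7 ended when the 0 h control (adjusted p = 0.0615), 24 h control (0.0845), 5 h array (0.0570) or 6 h array (0.0545) was dropped.

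TNFAIP8 is a regulator that opposes cell death and belongs to a family of lipid-binding proteins. By main probe set it moved later than the others. Its main probe set read 7.66 and 7.69 in the 0 and 24 h controls, and 7.71, 7.45, 7.59, 7.87, 8.20, 8.17, 8.31 and 7.99 after 1, 2, 3, 4, 5, 6, 7 and 24 h. The arrays of 2 and 3 h lay below both controls and all arrays from 4 h on above both. The rise in hours 4 to 7 was 0.46 ± 0.13, or 1.38-fold (limma adjusted p = 0.0371), after -0.09 ± 0.13 in hours 1 to 3. A second probe set ranged from 7.11 to 8.10 after exposure with controls of 7.36 and 7.29, and the last, on a dimmer part of the scale, from 4.26 to 4.63 with controls of 4.28 and 4.23. Both had all 4 later arrays above the controls. They also had the 1 h array above both, at 7.54 and 4.41, and the 3 h array between them. The call was lost without the 5 h (adjusted p = 0.0890), 6 h (0.0883) or 7 h array (0.0785), when either control was dropped (0.108 for 0 h and 0.0918 for 24 h), and with no filter on level (0.0520). With each probe set tested on its own, none of the 3 passed (0.0734 for the main one, 0.0958 and 0.313).

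TRAF1, an adaptor that binds TNF receptors and cIAP proteins, showed small differences. Its main probe set read 6.27 and 6.34 in the controls and 6.32, 6.56, 6.72, 6.56, 6.65, 6.50, 6.37 and 6.57 in hour order. All 7 arrays from 2 h on lay above both controls, the 7 h array by 0.03. The difference in hours 4 to 7 was 0.22 ± 0.12 (limma adjusted p = 0.276). A second, dimmer probe set read 3.78 to 4.22 after exposure with controls of 3.97 and 4.18 and had none of the arrays of 4 to 7 h above both.

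RIPK2, the kinase that carries signals from the NOD receptors to NF-kB, was the 1 tested member whose arrays of 4 to 7 h all lay below both controls. It read 8.53 and 8.35 in the controls and 8.39, 7.94, 8.09, 8.15, 8.28, 8.27, 8.30 and 8.52 in hour order, lowest at 2 h. The differences were -0.30 ± 0.13 in hours 1 to 3 (limma adjusted p = 0.198) and -0.19 ± 0.12 in hours 4 to 7 (adjusted p = 0.352). Its second probe set read 5.36 to 5.61 after exposure with controls of 5.77 and 5.55, and its 5 h array overlapped them.

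TNFAIP2, a TNF-induced protein that takes part in forming cell protrusions, had a larger change than the other 7 by its main probe set against both controls. Its main probe set read 9.25 and 9.32 in the controls and 9.39, 10.41, 10.96, 11.21, 11.73, 11.65, 11.57 and 10.35 in hour order. Every treated array lay above both controls, the 1 h array by 0.07. The rise in hours 4 to 7 was 2.25 ± 0.33, or 4.77-fold (limma adjusted p = 0.00603), and the difference in hours 1 to 3 was 0.97 ± 0.35 (adjusted p = 0.144). With its probe sets averaged the change was 1.496, under that of CD83 (1.86), and with only the 24 h control as reference TNFAIP2 stood at 2.22 beside 2.34 for CD83. The second probe set gave a smaller value. It read 6.22 and 6.49 in the controls and 6.37 to 7.28 after exposure, with the 1 h array between the controls, and rose by 0.74 ± 0.16 when each probe set was tested on its own (limma adjusted p = 0.0272).

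CD83, a membrane protein known as a marker of mature dendritic cells, was above both controls from the first hour. It read 7.29 in the 0 h control, 6.35 in the 24 h control, and 7.67, 8.47, 8.84, 8.84, 8.78, 8.58, 8.54 and 7.66 in hour order. All 8 treated arrays lay above both controls. The rise in hours 4 to 7 was 1.86 ± 0.31, or 3.64-fold (limma adjusted p = 0.00832). In hours 1 to 3 the difference was 1.503 ± 0.329, just outside the threshold (adjusted p = 0.0512), and it passed without the 1 h array (0.0153), with a filter at the 60th percentile (0.0495) and under cyclic loess scaling (0.0408). The gap between the controls sets the size: the mean of hours 4 to 7 exceeded the 0 h control by 1.39 and that of 24 h by 2.34.

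ICAM1, the adhesion molecule that leukocyte integrins bind, stayed near its controls by its main probe set. The main probe set read 6.08 and 6.11 in the controls and 6.05, 6.34, 6.37, 6.19, 6.05, 6.11, 6.22 and 6.22 in hour order, a difference of 0.04 ± 0.11 in hours 4 to 7 (limma adjusted p = 0.832). The other 2 probe sets, both dimmer, had the arrays of 1 to 3 h above both controls and most of the later ones not. One read 5.81, 5.93 and 5.42 in those 3 hours with controls of 5.26 and 5.34, the 1 h array 0.56 and 0.48 above them, the other 4.71, 4.74 and 4.56 with controls of 4.35 and 4.26. Tested on their own they differed from the controls by 0.42 ± 0.19 (limma adjusted p = 0.286) and 0.36 ± 0.13 (adjusted p = 0.175) in hours 1 to 3, and the latter fell by 0.43 from hours 1 to 3 to hours 4 to 7 (adjusted p = 0.0410).

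PTGS2, which encodes the inducible cyclooxygenase of prostaglandin synthesis, read at the bottom of the scale. Its probe sets lay between 2.61 and 3.12 on all 10 arrays, from the 1.55th to the 8.97th percentile of all probe sets on an array. With the filter left out, the main one differed by 0.07 ± 0.12 in hours 4 to 7 (limma adjusted p = 0.825). No detection calls were used, so whether the transcript was present was not tested.

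SOD2 is the manganese superoxide dismutase that detoxifies superoxide in mitochondria. Its probe set with a single symbol was above both controls from 2 h on and highest at 7 h. This probe set read 7.06 and 6.81 in the controls and 6.86, 7.52, 7.62, 8.02, 8.44, 8.13, 8.60 and 8.08 in hour order. The 1 h array lay between the controls and the 7 others above both. The rise in hours 4 to 7 was 1.37 ± 0.22, or 2.58-fold (limma adjusted p = 0.00772), after 0.40 ± 0.23 in hours 1 to 3 (adjusted p = 0.312). A further 4 probe sets carry the symbols of both SOD2 and SOD2-OT1, an overlapping transcript, and cannot be given to either. All of them rose in hours 4 to 7, by 1.07 ± 0.21 to 2.20 ± 0.34 (limma adjusted p from 0.00498 to 0.0192, each probe set on its own). Their timing differed. A pair of them was highest at 24 h and at 2 h still lay under the 0 h control (8.93 against 9.03 and 8.07 against 8.53).

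**Figure D2:**
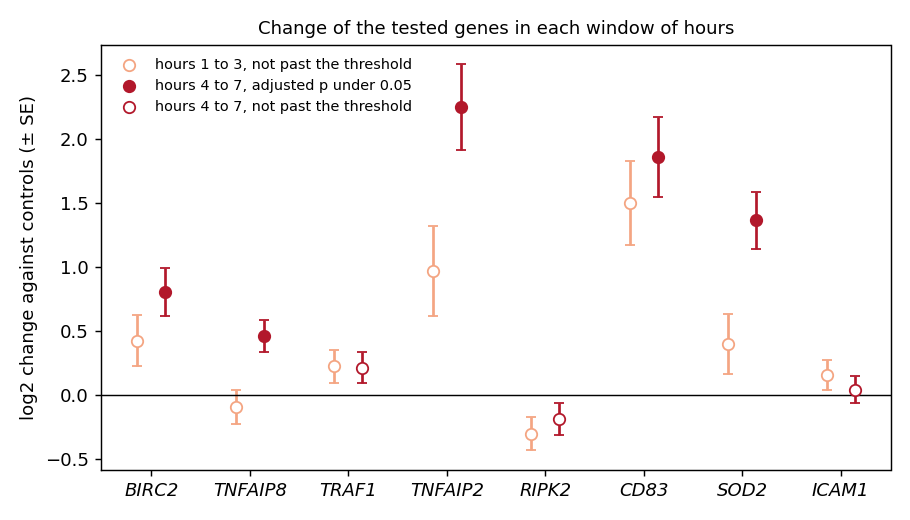
Log2 change against the 2 controls (vertical axis) of the 8 tested genes in the 3 arrays of hours 1 to 3 and the 4 arrays of hours 4 to 7, with bars of 1 standard error from limma. Filled points have an adjusted p under 0.05; TNFAIP2 (2.25), CD83 (1.86), SOD2 (1.37), BIRC2 (0.81) and TNFAIP8 (0.46) do in hours 4 to 7, and no gene does in hours 1 to 3.

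**Figure D3:**
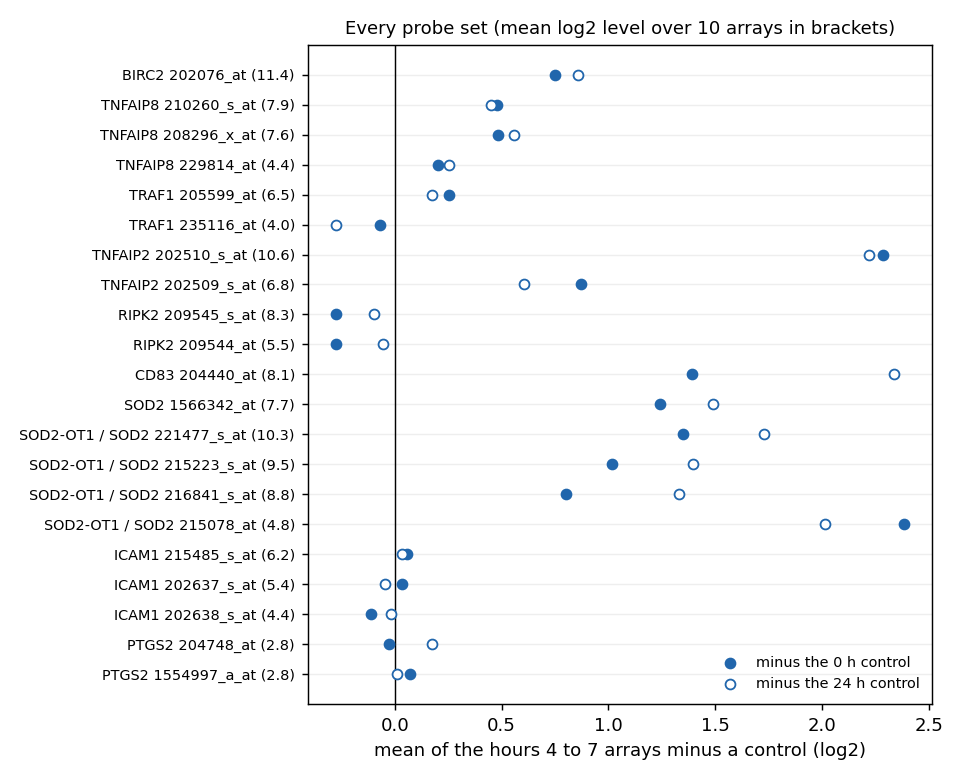
Mean of the 4 arrays of hours 4 to 7 minus the 0 h control (filled) and minus the 24 h control (open), on the log2 scale, for the 17 probe sets of the members and the 4 shared by SOD2 and SOD2-OT1, with each probe set's mean level in brackets. The TNFAIP2 probe sets differ in size (2.25 against 0.74 over both controls), and those of TRAF1 lie on opposite sides of 0.

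Counted over array positions without a test, TNFAIP2 and CD83 had all 8 treated arrays above both controls, as had 3.89% of all tested genes. None of the 8 had all treated arrays below, against 6.09%. The arrays of 1 to 3 h lay above both controls in the same 2 members (15.9% of all genes) and below in none (19.8%). Those of 4 to 7 h lay above both in 6 members (20.1%), namely BIRC2, TRAF1, TNFAIP2, TNFAIP8, SOD2 and CD83, and below both in RIPK2 (19.1%).

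Over all 8 treated arrays together, none of the 8 members passed the threshold (limma), beside 0.0506% of all genes higher and 0% lower. At an unadjusted p under 0.05, limma counted 1615 genes, BIRC2, TNFAIP2, SOD2 and CD83 among them. CD83 stood at 1.60 ± 0.35 (adjusted p = 0.125), TNFAIP2 at 1.62 ± 0.51 (0.224), SOD2 at 0.98 ± 0.36 (0.280) and BIRC2 at 0.62 ± 0.21 (0.240). This comparison pools hours at which these genes differed among themselves. CD83 passed it without the 24 h treated array (adjusted p = 0.0403) and in the authors' filtered table (0.0243).

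The windows also differed from each other. From hours 1 to 3 to hours 4 to 7, TNFAIP2 rose by 1.28 ± 0.30 (limma adjusted p = 0.0217), SOD2 by 0.97 ± 0.20 (0.0157) and TNFAIP8 by 0.56 ± 0.11 (0.0151), 3 of the 8 members beside 12.2% of all tested genes higher and 5.18% lower. CD83 (0.36 ± 0.28, adjusted p = 0.372) and BIRC2 (0.38 ± 0.17, 0.133) did not pass. Leaving out the 2 h array, which had the lowest upper quartile, left the changes at about the same size, 1.36 for TNFAIP2, 1.06 for SOD2 and 0.49 for TNFAIP8, but their adjusted p rose to 0.0826, 0.0623 and 0.0771, and the calls over all tested genes went from 2064 to 3 in that fit. That of TNFAIP2 was also lost without the 5 h (0.0608), 6 h (0.0620) or 7 h array (0.0504), and that of TNFAIP8 without the 6 h array (0.0515). BIRC2 passed too when the 3 h array was dropped, at 0.58 (0.0238). These values are of the main probe sets. Tested on its own, the second TNFAIP2 probe set rose by 0.48 (limma adjusted p = 0.0654). The other TNFAIP8 ones rose by 0.53 (0.0486) and 0.16 (0.344). With probe sets averaged, TNFAIP2, SOD2 and TNFAIP8 passed.

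Per hour of exposure over the 7 arrays of 1 to 7 h, the same 3 genes rose, with 16.6% of all tested genes having a positive slope past the threshold and 10.1% a negative one. By main probe set the slope was 0.35 ± 0.06 log2 units per hour for TNFAIP2 (limma adjusted p = 0.00520), 0.26 ± 0.04 for SOD2 (0.00248) and 0.14 ± 0.03 for TNFAIP8 (0.00868). These 3 kept their calls whichever of the 7 arrays was left out, and with probe sets averaged. Tested on its own, the second TNFAIP2 probe set had a slope of 0.09 (limma adjusted p = 0.231). The other TNFAIP8 ones had slopes of 0.13 (0.0544) and 0.02 (0.742). CD83 and BIRC2, whose levels turned within the window, had slopes of 0.10 ± 0.06 (0.229) and 0.09 ± 0.04 (0.176). RIPK2, at 0.02 ± 0.03 (0.589), passed without the 1 h array (0.07, adjusted p = 0.0389).

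**Figure D4:**
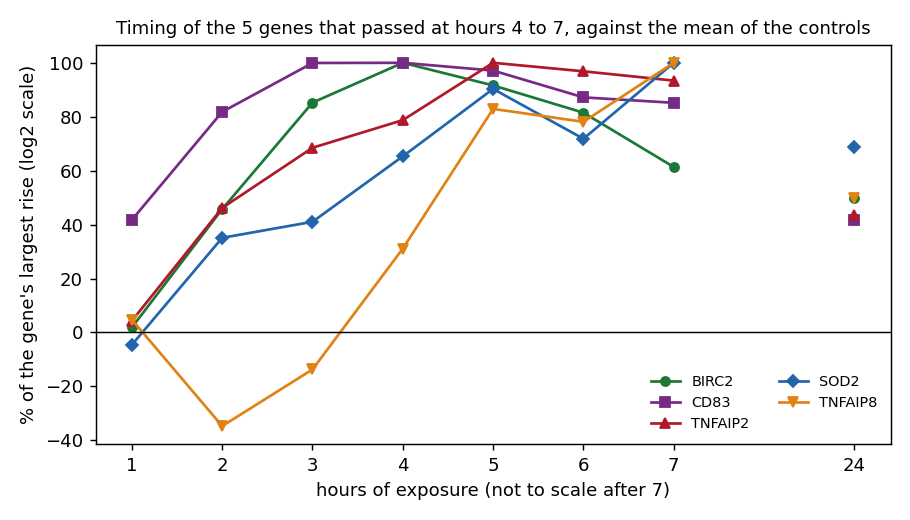
Level of the 5 genes that rose in hours 4 to 7, as a percent of each gene's largest rise above the mean of the controls on the log2 scale (vertical axis), by hour of exposure (horizontal axis, not to scale after 7 h), 1 array per point. CD83 stands at 41.8% after 1 h, when the other 4 lie between -4.57% and 4.76%, and at 24 h all 5 lie between 41.6% and 68.8%; against the 0 h or 24 h control alone CD83 would stand at 24.0% or 52.8% after 1 h and at 23.7% or 52.6% at 24 h.

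The 5 rising genes reached their highest array at different hours. By main probe set, CD83 and BIRC2 were highest at 4 h, TNFAIP2 at 5 h, and SOD2 and TNFAIP8 at 7 h, the last hour before the gap in sampling. The second TNFAIP2 probe set and the dimmest of TNFAIP8 were highest at 4 h, and the remaining TNFAIP8 one at 7 h. Of the probe sets shared by SOD2 and SOD2-OT1, a pair was highest at 24 h and the other pair at 7 h. CD83 had 99.9% of its largest rise by 3 h, BIRC2 85.2%, TNFAIP2 68.5% and SOD2 41.0%, while TNFAIP8 was below the mean of the controls (-13.7%). At 24 h, SOD2 kept 68.8% of its largest rise, TNFAIP8 49.9%, BIRC2 49.8%, TNFAIP2 43.7% and CD83 41.6%. For CD83, whose controls lay far apart, the share was 23.7% against the 0 h control and 52.6% against the 24 h control, so its place in that order turns with the control. The other 4 kept 42.9% to 71.0% against either. With 1 array per hour the order of neighbouring hours has no replicate error.

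In single arrays set against the 0 h control, 0, 2, 2, 2, 3, 3, 3 and 2 of the 8 members were higher by 1 log2 unit or more at 1, 2, 3, 4, 5, 6, 7 and 24 h. Of all tested genes 1.45%, 1.31%, 1.7%, 1.75%, 1.55%, 1.15%, 1.09% and 0.464% were. Against the 24 h control the members' counts were 1, 2, 2, 4, 3, 3, 3 and 3, beside 0.346%, 0.607%, 0.969%, 1.31%, 1.8%, 1.74%, 1.93% and 2.24%. TNFAIP2 was among them from 2 h on against either control. At 24 h it exceeded the 0 h control by 1.10 and the later control by 1.03, SOD2 by 1.02 and 1.27, and CD83 by 0.37 and 1.31, so that for CD83 the size at 24 h depends on which control is taken.

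As a description over 10 arrays of 1 line, which share controls and drift with time, BIRC2 and TNFAIP2 moved most alike of the 28 pairs of members (Pearson r = 0.92), with TNFAIP2 and SOD2 next (0.92). RIPK2 and ICAM1 were the least alike (-0.65). Among all other tested genes, the likeness to BIRC2 was highest for IRAK2 (0.98), a kinase of interleukin-1 receptor signalling, and EHD1 (0.98), a protein of endosome recycling. For TNFAIP2 they were SDC4 (0.98), a cell surface proteoglycan, and SPHK1 (0.97), a sphingosine kinase. For CD83 they were FAM217B (0.97) and the chemokine CXCL6 (0.97), for SOD2 NSDHL (0.96), an enzyme of cholesterol synthesis, and PMEPA1 (0.95), and for TNFAIP8 DENND2B (0.98) and the mitochondrial nuclease EXOG (0.97). RIPK2 was most like SMARCAD1 (0.98) and KRR1 (0.98), TRAF1 most like TBC1D10A (0.90) and CHST15 (0.88), and ICAM1 most like LINC02175 (0.84) and P4HA3 (0.82).

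Around the members, 87 further genes of the pathway and of the members' families were listed, 82 were measured and 62 tested. In hours 4 to 7 against the controls 16 rose and 3 fell, beside the 7.6% and 6.19% of all tested genes, and their median change was 0.13. SOD3 and BCL2, 2 of the 16, read under the filter level in both controls and passed the filter only through the arrays in which they were high, so their calls add nothing to that count. Of 5 NF-kB subunits 4 rose, among them RELB by 1.25 ± 0.25 (limma adjusted p = 0.0136), NFKB2 by 1.18 ± 0.24 (0.0144) and NFKB1 by 0.58 ± 0.11 (0.0110). Of 8 tested inhibitors of the pathway 5 rose, with NFKBIZ, TNFAIP3 and NFKBIA at 2.95 ± 0.11, 1.75 ± 0.15 and 1.54 ± 0.13. With probe sets averaged, NFKBIZ, TNFAIP3 and NFKBIA stood at 2.62, 1.91 and 0.90 and NFKB2 at 0.73, all past the threshold. The 7 tested genes of the IKK complex and of the kinases and adaptors upstream of it held no call, and MAP3K14, the kinase of the alternative pathway, stood at -0.52 ± 0.17 (adjusted p = 0.0685). Without the 0 h control the calls of RELB (0.83, adjusted p = 0.0689) and NFKB2 (1.02, 0.0718) were lost.

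Of 10 tested receptors and adaptors 3 rose: IRAK2 by 1.27 ± 0.26 (limma adjusted p = 0.0146), TRADD, the adaptor of the TNF receptor, by 0.42 ± 0.12 (0.0402) and IL1R1, an interleukin-1 receptor, by 0.42 ± 0.12 (0.0429). The call of IRAK2 was lost without the 24 h control, with a change of 1.14, and TRADD changed by 0.27 in that fit. The calls of TRADD and IL1R1 were lost in several fits with 1 array left out, as without the 5 h array (limma adjusted p = 0.0935 and 0.103). They were also lost with no filter on level (0.0596 and 0.0642) and with probe sets averaged (0.0703 and 0.180). TRAF3, a relative of TRAF1 that restrains the alternative pathway, rose by 0.53 ± 0.11 (0.0143, and 0.0579 without the 24 h control), 1 of 5 tested TRAF relatives. None of 4 tested relatives of BIRC2 passed in either direction, BIRC5, also known as survivin, standing at -0.39 ± 0.25 (0.342), and none of 3 tested RIP kinases and NOD receptors. NOD2, a sensor of bacterial wall fragments that signals through RIPK2, was under the filter on mean level and not tested. It read 4.60 and 4.67 in the controls and 4.27, 5.44, 6.02, 6.09, 6.58, 5.96, 6.09 and 5.01 in hour order, so all arrays from 2 h on lay above both controls, and it was the 1 gene of 20 listed ones under the filter whose mean in hours 4 to 7 was 1 log2 unit or more from both. Among 6 further survival effectors IER3 rose by 1.14 ± 0.17 (0.00642). BCL2, which passed the filter through its later arrays, read 5.64 and 5.53 in the controls, 5.51 to 5.64 at 1 to 3 h and 5.95 to 6.49 at 4 to 7 h, a change of 0.72 ± 0.14 (0.0132), or 0.18 when its probe sets were averaged (0.167).

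TNFAIP8L1, the 1 tested relative of TNFAIP8, changed by -0.90 ± 0.18 (limma adjusted p = 0.0136). Its controls read 9.53 and 8.79, and with only the first or only the second as reference the change was -1.28 or -0.53. Among 6 tested genes that remove superoxide or peroxide besides SOD2, SOD3, the secreted dismutase, read 5.46 and 5.48 in the controls, under the filter level, and 5.87 to 6.26 after exposure, a change of 0.61 ± 0.11 in hours 4 to 7 (0.00932), and catalase (CAT) stood at -0.42 ± 0.14 (0.0822). Of 3 tested relatives and partners of ICAM1, ICAM5 changed by -0.65 ± 0.15 (0.0211, but -0.41 and 0.115 with the 0 h control and 0.0580 with the 6 h array left out) and ITGB2, a chain of leukocyte integrins, by -0.36 ± 0.11 (0.0467, lost in 7 of 9 fits with 1 array left out, with adjusted p up to 0.157). None of 4 tested genes of the prostaglandin pathway of PTGS2 passed, and PTGES, a prostaglandin E synthase, stood at 0.52 ± 0.20 (0.109).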

How the data were processed

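RNA of 10 samples of MiaPaCa-2 cells was measured on Affymetrix arrays. The deposited values are log2 intensities that the authors made with RMA, per the submitters' processing notes, with the version not given in the sources used here. RMA brings all arrays to 1 distribution as a rule, which removes shifts shared by all genes. The deposited arrays did not share 1 distribution, with medians of 5.49 to 5.61 and upper quartiles of 7.50 to 7.76. Such shifts may therefore remain in part. A filtered table of 7622 of the 54675 probe sets, with the same log2 values within 5.00e-09, was deposited too. The rule of that filter is not given in the sources used here. Arrays have no read depth, and their number limits the precision.

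Groups were taken from the labels, and the windows of hours are pools of single arrays, so their spread includes change with time. From the 41097 probe sets with 1 symbol, each gene was represented by its brightest one on average. Testing was limited to genes whose mean reached log2 5.79, the 40th percentile. Two-sided tests with lmFit and eBayes of limma 3.58.1 (R 4.3.3) covered treated against control (10 arrays, 8 residual degrees of freedom), each window of hours against control and the later window against the earlier one (9 arrays without the 24 h treated one, 6 degrees of freedom), and the slope over 1 to 7 h (5 degrees of freedom), adjusted by Benjamini-Hochberg. Single-array differences and counts of arrays beyond both controls carry no test. The fits were tested on simulated data. Sequences are RefSeq promoters of GRCh38.p14, matched by symbol. Tables and figures were handled in Python 3.11.15 with pandas 2.3.3 and matplotlib 3.10.9. The genes described, the related lists and the rules for naming genes (all members, and per list up to 3 genes with the smallest p in hours 4 to 7, and the 2 most correlated genes per member) were chosen with earlier results of these data known. Alternatives changed the filter, the rule for probe sets, the scaling, the prior, the table, the arrays included, the form of the slope and the size threshold. For 8 tested members every array was at or above the filter level.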

Additional observations from a re-analysis of the deposited data

Results flagged for a closer look

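The rise of 3 members differed between the windows of hours under the same controls, by limma's test of the difference itself: TNFAIP2 was 1.28 higher in hours 4 to 7 than in hours 1 to 3 on the log2 scale, SOD2 0.967 and TNFAIP8 0.557. Without the 2 h array the differences were 1.36, 1.06 and 0.49 in that order, with adjusted p above the threshold (0.0826, 0.0623 and 0.0771). All of these values are of the main probe sets.

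The 4 probe sets annotated to both SOD2 and SOD2-OT1, which no gene-level comparison used, were above the higher control in the mean of hours 4 to 7. The differences were 2.01 for the dimmest of them (mean level 4.79), 1.35 for the brightest (10.33), 1.02 for the next (9.49) and 0.804 for the last (8.79). In the last pair the 24 h treated array was the highest of all, at 10.41 and 9.72, and the 1 h array, at 8.55 and 7.77, lay below both controls. The other pair was highest at 7 h.

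Dixon's test flagged no single sample far from the others in any of 18 sets of arrays. The windows hold only 3 and 4 arrays, each of a different hour, so such a check has little power there.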

How the results depend on the processing

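Of 602 values of single members under an alternative, 558 kept their direction and side of the threshold. The count of members past the threshold in hours 1 to 3 against control, 0 as reported, was 1 (CD83) with the filter at the 60th percentile, with probe sets averaged per gene (adjusted p = 0.0426), with each probe set on its own (0.0468), under cyclic loess scaling and in the filtered table (0.0216), and ranged from 0 to 2 with 1 array left out, 2 being CD83 and TNFAIP2 (both 0.0153) without the 1 h array. Treated against control gave 1 (CD83) in the filtered table and from 0 to 1 with 1 array left out. Hours 4 to 7 against control gave 3 to 5 (CD83, SOD2 and TNFAIP2 in every such fit), the windows against each other 0 to 4 and the slope 3 to 4. TNFAIP8 missed the threshold in hours 4 to 7 in the filtered table (0.0585) and with each probe set on its own (0.0734 to 0.313), and the slope of BIRC2 passed on the log2 of the hour (0.0480).

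With a size of 1.5-fold, 4 members were higher at 4 h than in the 0 h control, and 4 (3 h) and 5 (7 h) than in the 24 h control, beside 6.27%, 3.35% and 7.86% of all tested genes. With all probe sets of a gene required, 1 member (CD83) had all treated arrays, and 1 the arrays of 1 to 3 h, above both controls, and 0 had those of 4 to 7 h below, beside 1.65%, 7.02% and 9.93% of all tested genes. CD83 has only 1 probe set, so this demand could not change its place.

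Reversals were in values that passed no threshold as reported or when reversed: ICAM1 in hours 4 to 7 was -0.0046 in the filtered table; with the 0 h control added to the slope TRAF1 was 0.021, RIPK2 -0.0128 and ICAM1 0.00202; on the log2 of the hour TRAF1 was 0.035. With 1 array left out, TRAF1 ranged from -0.12 to 0.084 between the windows, and slopes from -0.044 to 0.030 for TRAF1, -0.014 to 0.16 for CD83, -0.0012 to 0.071 for RIPK2 and -0.044 to 0.0032 for ICAM1. The ICAM1 value in the filtered table is that of a dimmer probe set, as its main one is not in that table. The cause of the other reversals was not tested.

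Over all genes, leaving out 1 array moved the counts from 6 to between 1 and 115 (treated), from 233 to between 23 and 1823 (hours 1 to 3), from 1636 to between 740 and 1754 (hours 4 to 7), from 2064 to between 3 and 2886 (windows) and from 3170 to between 1611 and 3034 (slope). The filtered table gave 36 and 358 for the first and second, the mean of probe sets 16 for the first, and the 0 h control in the slope 932. Cyclic loess scaling split the calls into 169 higher and 124 lower in hours 1 to 3 (100 and 133 as deposited), 1137 and 1050 between windows (1449 and 615) and 1882 and 1639 for the slope (1969 and 1201). With 1 control left out, the remaining one was assumed to vary like the treated arrays.

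No paired analysis was possible because the groups share 1 hour only and the labels give no pairing of arrays.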
